A study of Mus musculus with 6 samples.

Results

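The 10 genes described here encode CC chemokines, small secreted proteins that direct the movement of leukocytes: *Ccl11*, *Ccl8*, *Ccl2*, *Ccl7*, *Ccl6*, *Ccl9*, *Ccl5*, *Ccl24*, *Ccl25* and *Ccl28*. They were picked by gene symbol from the 17778 genes listed for the colon of mice prone (OP) or resistant (OR) to obesity. The list was selected on the OP against OR difference of these same libraries, led by *Ccl11*, so the differences of the 10 genes between OP and OR mice are given below as a description, without a test, and support nothing by themselves. All 10 genes had a row with values in each of the 6 mice. A gene entered the fit across genes if 3 or more mice reached an expression of 0.5 FPKM, the unit explained below. Of 17778 genes 13520 passed, 9 of the 10 chemokines among them, and *Ccl24* did not.

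Colon RNA came from 3 OP mice and 3 OR mice, 1 library per mouse. Every mouse was a male, wild-type C57BL/6J mouse fed a high-fat diet of 60% fat for 16 weeks, to 21 weeks of age. Of 42 mice on that diet, the study called the 10 with the most weight gain OP and the 10 with the least OR, so the groups are the ends of 1 population of an inbred strain and differ by outcome, not by treatment. How the 3 mice per group were drawn from the 10 is not given in the sources used here, and no group on another diet entered the comparison.

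Chemokines of the CC family carry adjacent cysteines near the amino end and act on G protein-coupled receptors named Ccr. Inflammatory members such as the eotaxins and the monocyte chemoattractants are induced in stromal cells and macrophages by cytokines, while homeostatic members such as *Ccl25* and *Ccl28* are made by epithelium and guide lymphocytes into the gut wall. Atypical receptors of the Ackr group bind the same ligands and remove them without classical signalling.

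Expression was given as FPKM, the number of fragments scaled by transcript length and by all mapped fragments of the mouse, so levels of different genes can be set side by side. The read totals are not part of these values, so the depth of each mouse and the counting error are unknown. FPKM totals lay between 585350 and 600028 per mouse, and Spearman's rho between pairs of mice over all genes lay between 0.964 and 0.987. The tissue label was met by the colon epithelium markers, among which *Epcam* had 935 to 1188 FPKM in OP mice and 994 to 1121 FPKM in OR mice. OP mouse 1 stood apart, with 17.6 FPKM of the goblet cell mucin *Muc2* against 154 to 933 FPKM in the other mice, and it took the lowest of the 6 sample weights, 0.332. In whole tissue, fewer cells of a type and less RNA per cell cannot be told apart.

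Except for *Ccl24*, *Ccl25* and *Ccl28*, the genes sit on mouse chromosome 11, in a pair of clusters. *Ccl2*, *Ccl7*, *Ccl11*, *Ccl12* and *Ccl8* follow each other in that order in the RefSeq annotation of GRCm38.p6, and *Ccl5*, *Ccl9*, *Ccl6* and *Ccl3* form the other run. The 3 exceptions are on chromosomes 5, 8 and 13. RefSeq promoters of the GRCm38.p6 build matched 5 of the 10 genes, *Ccl8*, *Ccl6*, *Ccl9*, *Ccl25* and *Ccl28*, with 6 promoters between them. The 250 bases before the start of *Ccl8*, the matched gene whose OP and OR mice were separated, are shown with those of *Ccl6* and *Ccl9* from the other cluster, whose groups overlapped. They lie at chr11:82114935-82115184 on the plus strand for *Ccl8*, at chr11:83593088-83593337 on the minus strand for *Ccl6* and at chr11:83578637-83578886 on the minus strand for *Ccl9*. Capitals mark a TATA box (TATAAA), an AP-1 motif (TGANTCA) or an NF-kB motif, on either strand.
Ccl8: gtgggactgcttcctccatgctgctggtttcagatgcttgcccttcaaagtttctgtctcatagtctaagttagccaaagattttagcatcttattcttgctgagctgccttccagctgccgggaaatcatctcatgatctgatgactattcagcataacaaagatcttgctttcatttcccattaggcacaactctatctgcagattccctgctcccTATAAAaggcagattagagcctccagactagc
Ccl6: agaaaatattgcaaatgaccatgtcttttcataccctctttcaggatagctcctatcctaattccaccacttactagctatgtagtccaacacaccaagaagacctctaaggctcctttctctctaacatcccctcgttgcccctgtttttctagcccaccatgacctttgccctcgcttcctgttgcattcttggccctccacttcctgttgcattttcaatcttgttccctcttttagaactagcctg
Ccl9: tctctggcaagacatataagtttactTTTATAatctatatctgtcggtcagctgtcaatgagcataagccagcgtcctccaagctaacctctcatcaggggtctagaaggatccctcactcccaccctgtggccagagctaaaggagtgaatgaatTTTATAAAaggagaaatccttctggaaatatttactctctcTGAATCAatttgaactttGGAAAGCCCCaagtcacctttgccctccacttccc

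The *Ccl8* sequence holds 1 TATA box that begins 32 bases before the start. In *Ccl9*, TATA box letters begin 92 bases before the start, overlap a match on the other strand at 94 bases, and occur once more on the other strand at 224 bases. *Ccl9* also holds an AP-1 motif at 53 bases and an NF-kB motif on the other strand at 35 bases. None of the motifs searched was found in the 250 bases of *Ccl6* or *Ccl28*, and of the *Ccl25* pair of promoters the second, at chr8:4349338-4349587 on the plus strand, holds TATAAA at 16 bases. A STAT6-type motif (TTC and GAA with 4 bases between them), a STAT-type motif (TTC and GAA with 3 bases between them) and an interferon-response motif (GAAA repeated after 2 bases) were not found in any of the 6 promoters. Among the 250 bases before the start in all 32851 RefSeq promoters, 12.4% hold TATAAA, 6.75% the AP-1 motif, 7.25% the NF-kB motif, 5.85% the STAT6-type motif, 7.02% the STAT-type motif and 2.98% the interferon-response motif. These matches describe letters in a window and say nothing of binding.

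The 10 genes covered a wide range of levels. *Ccl6* had the highest mean over the 6 mice, 100.2 FPKM, at the 94.7th percentile of all 17778 genes, and was followed by *Ccl5* at 66.1 FPKM, *Ccl28* at 21.8 FPKM and *Ccl8* at 13.01 FPKM. *Ccl25*, *Ccl11* and *Ccl9* came next with 8.45, 8.01 and 6.40 FPKM. *Ccl7*, *Ccl2* and *Ccl24* had means of 0.547, 0.542 and 0.310 FPKM, below the 25th percentile. Much of this order is not separated beyond the spread between mice. *Ccl6* was above *Ccl5* in 3 of 6 mice, *Ccl11* above *Ccl9* in 3 of 6, and each of *Ccl28*, *Ccl8*, *Ccl25* and *Ccl7* above the next gene in 4 of 6, whereas *Ccl5* was above *Ccl28*, *Ccl9* above *Ccl7* and *Ccl2* above *Ccl24* in all 6 mice.

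**Figure D1:**
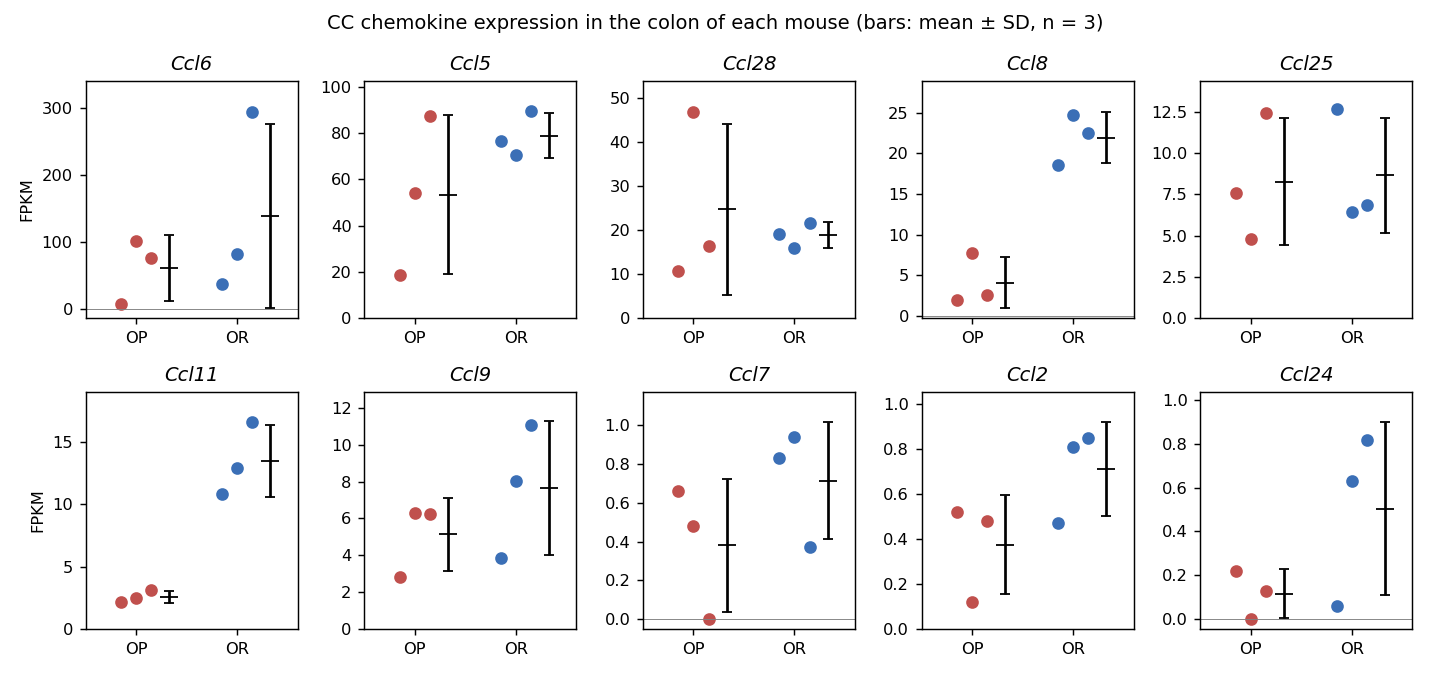
FPKM of the 10 CC chemokines in the colon, ordered by mean level, with OP mice in red, OR mice in blue, mice 1 to 3 from left to right, and bars for the mean ± SD (n = 3). *Ccl11* and *Ccl8* are the panels in which every OP point lies below every OR point.

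*Ccl11* encodes eotaxin, which attracts eosinophils through the receptor Ccr3. OP mice 1, 2 and 3 had 2.19, 2.46 and 3.11 FPKM of *Ccl11*, and OR mice 1, 2 and 3 had 10.85, 12.89 and 16.56 FPKM. Every OP mouse was far below every OR mouse, and the lowest OR mouse was 3.49-fold above the highest OP mouse. The means were 2.59 ± 0.473 FPKM (SD, n = 3) in OP mice and 13.4 ± 2.89 FPKM (SD, n = 3) in OR mice, a ratio of 5.19. On the log2(FPKM + 1) scale, which understates changes of low genes, the difference OP minus OR was -2.00 (standard error 0.21), and with each mouse left out in turn it lay between -2.13 and -1.85.

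*Ccl24*, the other mouse eotaxin, was close to the lower end of the scale. It had 0.22, 0 and 0.13 FPKM in OP mice and 0.06, 0.63 and 0.82 FPKM in OR mice. OR mice 2 and 3 were above all OP mice, but OR mouse 1 was below OP mice 1 and 3, so the groups overlapped. At 0.117 ± 0.111 FPKM (SD, n = 3) in OP mice and 0.503 ± 0.396 FPKM (SD, n = 3) in OR mice, the gene did not pass the filter and was not fitted.

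The monocyte chemoattractant group showed the other separated gene. *Ccl8*, whose mouse protein acts on Ccr8, had 1.95, 7.72 and 2.59 FPKM in OP mice and 18.54, 24.78 and 22.47 FPKM in OR mice. OP mouse 2 was the highest OP mouse, and the lowest OR mouse was 2.40-fold above it. The means were 4.09 ± 3.16 FPKM (SD, n = 3) in OP mice and 21.9 ± 3.155 FPKM (SD, n = 3) in OR mice, a ratio of 5.37, and the difference OP minus OR in log2(FPKM + 1) was -2.33 (standard error 0.39). *Ccl8* varied more within OP mice than *Ccl11*, and the ratio of *Ccl8* to *Ccl11* ran from 0.833 to 3.14 over the OP mice and from 1.36 to 1.92 over the OR mice.

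*Ccl2* and *Ccl7*, ligands of Ccr2 that draw monocytes from the blood, lie beside *Ccl11* on the chromosome but were low. *Ccl2* had 0.52, 0.12 and 0.48 FPKM in OP mice and 0.47, 0.81 and 0.85 FPKM in OR mice. *Ccl7* had 0.66, 0.48 and 0 FPKM in OP mice and 0.83, 0.94 and 0.37 FPKM in OR mice. In each gene 1 OR mouse lay among the OP mice, mouse 1 for *Ccl2* and mouse 3 for *Ccl7*. The ratios of the OR to the OP mean were 1.90 and 1.88, and the differences in log2(FPKM + 1) were -0.32 (standard error 0.19) and -0.33 (standard error 0.24). Without OP mouse 2 that of *Ccl2* was -0.18, and that of *Ccl7* ran from -0.48 to -0.11 with each mouse left out, the smallest without OP mouse 3.

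*Ccl6* and *Ccl9*, rodent chemokines that act through Ccr1, differed more between mice than between groups. *Ccl6* had 7.60, 101.64 and 76.25 FPKM in OP mice and 38.54, 82.52 and 294.66 FPKM in OR mice. The highest mouse, OR mouse 3, was 38.8-fold above the lowest, OP mouse 1, and the groups overlapped. Its difference in log2(FPKM + 1) was -1.28 (standard error 1.05), -0.16 without OP mouse 1, -0.49 without OR mouse 3, and -1.94 without OP mouse 2 or OR mouse 1. *Ccl9* had 2.82, 6.32 and 6.26 FPKM in OP mice and 3.86, 8.04 and 11.09 FPKM in OR mice, with the lowest and highest values in the same mice as for *Ccl6*. Its difference was -0.46 (standard error 0.40), -0.15 without OP mouse 1, -0.17 without OR mouse 3 and -0.83 without OR mouse 1. The ratio of *Ccl6* to *Ccl9*, although the genes are neighbours, ran from 2.695 in OP mouse 1 to 26.6 in OR mouse 3.

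*Ccl5* is made by T cells and natural killer cells and draws further lymphocytes and monocytes. OP mice had 18.58, 53.95 and 87.27 FPKM and OR mice 76.45, 70.50 and 89.59 FPKM. The OR mice were close together at 78.85 ± 9.77 FPKM (SD, n = 3), while the OP mice ranged from far below them to within their range, at 53.3 ± 34.35 FPKM (SD, n = 3). The difference in log2(FPKM + 1) was -0.80 (standard error 0.49), -0.19 without OP mouse 1 and -1.28 without OP mouse 3.

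Both epithelial chemokines had similar group means. *Ccl25*, the ligand of Ccr9 and best known from the small intestine, had 7.60, 4.81 and 12.39 FPKM in OP mice and 12.63, 6.43 and 6.86 FPKM in OR mice, with a difference of -0.08 (standard error 0.36) that changed sign with the mice included, to 0.21 without OP mouse 2 and 0.19 without OR mouse 1, and was -0.39 without OP mouse 3. *Ccl28*, which attracts IgA plasma cells to mucosae through Ccr10, had 10.83, 46.90 and 16.41 FPKM in OP mice and 19.04, 15.86 and 21.72 FPKM in OR mice, with a difference of 0.12 (standard error 0.47). OP mouse 2 had more *Ccl28* than any other mouse, and without it the difference was -0.46, against 0.55 without OP mouse 1. The intervals around both differences are wide, and alike means in 3 mice per group do not show that the genes were alike.

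Set against the whole table, 2 of the 10 genes had all OP mice below all OR mice, 8 overlapped and 0 had all OP mice above, where 6.81% of the 13520 genes tested had OP below OR without overlap and 1.63% had OP above OR. Since the genes were picked from this contrast, nothing is read from that count. The count depended on the mice included: without OR mouse 1, the groups of 5 of the 10 did not overlap, *Ccl2*, *Ccl9* and *Ccl24* being added, and without OP mouse 3 or without OR mouse 3 those of 3 did not. Leaving out a mouse can only make overlap rarer, for any gene. The shares above hold for the full groups, and the share of all genes with a mouse left out was not computed. The mean was lower in OP mice for 9 of the genes. OR mouse 3 had the highest value in 6 of the 10 genes, and OP mouse 1 the lowest in 6. The shares of all genes with these traits were not computed, and nothing is read from these counts either. By limma-trend at a q-value below 0.2 and a fold change of at most 0.83 or at least 1.2, 0.0222% of the genes tested (3 genes) were lower in OP mice and 0% were higher. The count of 3 was 0 with median-of-ratios scaling, TPM, a pseudocount of 0.1, no filter, at least 1 FPKM in all mice or the replicate number as a block, 5 with sample weights and 0 to 1 with each mouse left out, being 1 without OP mouse 2 and 0 without any of the others. At an unadjusted p below 0.05 the shares were 3.53% (477 genes) and 0.503% (68 genes), and after median-of-ratios scaling 423 genes were lower and 153 higher. The median difference of all genes tested was -0.10 in log2(FPKM + 1) and 0.01 after that scaling, small beside the differences of *Ccl11* and *Ccl8*.

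**Figure D2:**
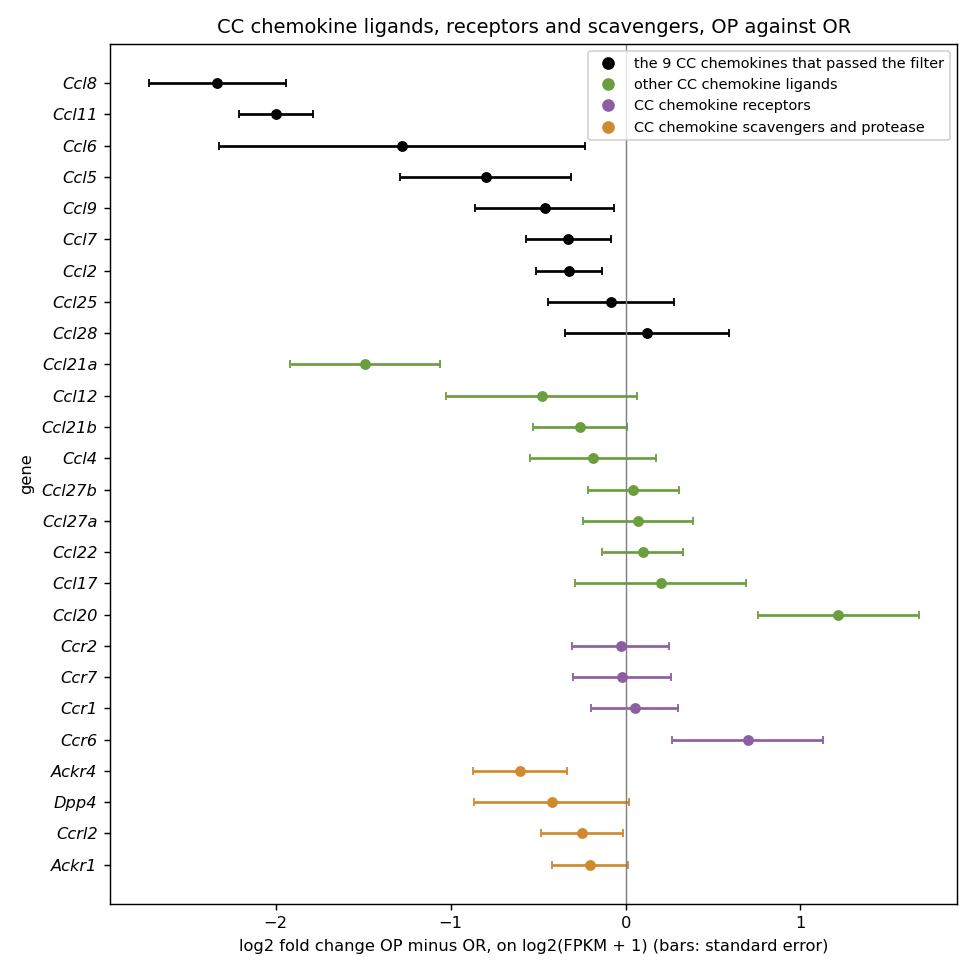
Difference OP minus OR in log2(FPKM + 1) for the CC chemokines that passed the filter (black), the other CC ligands (green), the Ccr receptors (purple) and the scavengers with the protease Dpp4 (orange), with bars for the standard error. *Ccl8* at -2.33 and *Ccl11* at -2.00 lie farthest to the left, and *Ccl20* at 1.22 farthest to the right.

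The summed FPKM of the 10 genes was 52.97, 224.4 and 204.9 in OP mice and 181.3, 223.4 and 465 in OR mice, so the groups overlapped. *Ccl5* and *Ccl6* together made up between 49.4% and 82.6% of the sum, and *Ccl6* alone between 14.35% and 63.4%. The sum of *Ccl11* and *Ccl8* was 4.14, 10.18 and 5.70 FPKM in OP mice and 29.39, 37.67 and 39.03 FPKM in OR mice. Their joint share ran from 2.78% to 7.82% over OP mice and from 8.39% to 16.9% over OR mice, which follows from the separation of these 2 genes already given.

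**Figure D3:**
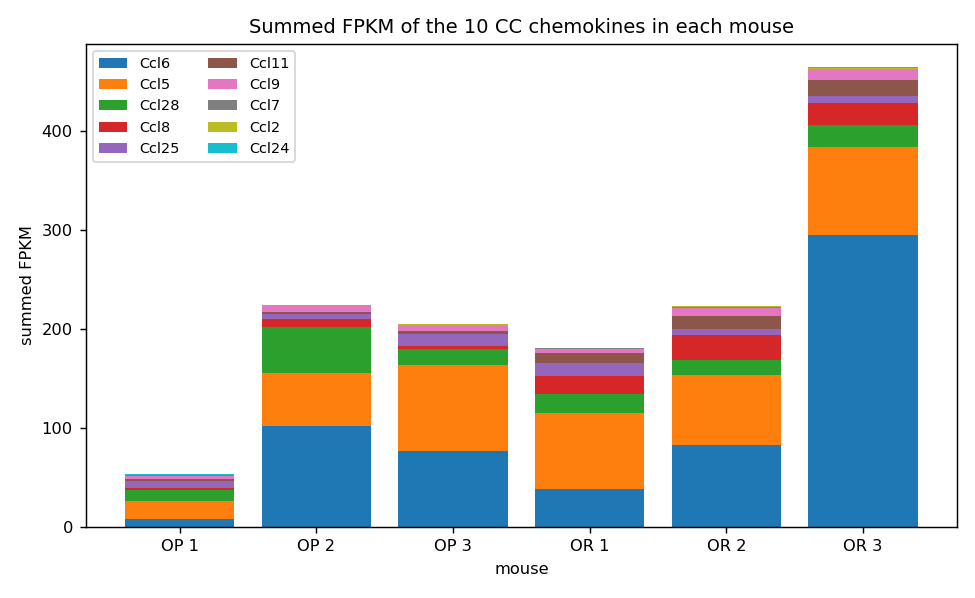
Stacked FPKM of the 10 CC chemokines in each mouse. *Ccl6* and *Ccl5* fill most of every bar except that of OP mouse 1, where they made up 49.4%, and the *Ccl11* and *Ccl8* segments are thicker in the 3 OR mice.

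The genes whose profile over the 6 mice was most like that of *Ccl11* were sought by the smallest root mean square difference of the mean-centred log2(FPKM + 1). The 8 nearest were *Nr4a1* (0.254), *Clec3b* (0.299), *Pf4* (0.324), *Cd34* (0.333), *Lyve1* (0.351), *Dcn* (0.364), *Ltbp4* (0.377) and *Retnla* (0.379). All 8 had every OP mouse below every OR mouse, a pattern that the measure favours since *Ccl11* has it. *Dcn*, which encodes the matrix proteoglycan decorin, had 27.89, 17.35 and 40.80 FPKM in OP mice and 81.13, 95.49 and 191.45 FPKM in OR mice. *Ccl11* per 100 FPKM of *Dcn* ran from 7.62 to 14.2 over the 6 mice, with OP and OR mice interleaved, where *Ccl11* itself differed 7.56-fold between the lowest and highest mouse. A narrow ratio follows from choosing *Dcn* by its likeness to *Ccl11*, and nothing is read from it. For *Ccl8*, the nearest gene was *Ccl11* (0.542), followed by *Wfdc17* (0.594) and *Nr4a1* (0.596), so its profile had no gene as close to it as *Ccl11* had. These likenesses are over 6 mice whose values share the same libraries and scaling.

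*Ccl25*, *Ccl28* and *Ccl24* had other neighbours. Nearest to *Ccl25* were *Glrx* (0.0663), *Hpgd* (0.114) and *Gm45871* (0.117). *Glrx* encodes glutaredoxin, and *Hpgd* the enzyme that breaks down prostaglandins. Nearest to *Ccl28* were *Steap1* (0.0870), *Cela1* (0.1125) and *Rasd2* (0.129), all highest in OP mouse 2. *Cela1*, which encodes a protease of the elastase family, had 115.29 FPKM there and 27.58 to 51.12 FPKM in the other mice. The genes nearest to *Ccl24* were *Nrg1* (0.130), *Gpr182* (0.130) and *Tnfrsf18* (0.135), and at such low values small differences decide the order.

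The remaining neighbours were looked up after the values had been seen. The 8 genes nearest to *Ccl6* were *Gm1123*, *Bace2*, *Slc12a8*, *Klk1*, *Plet1*, *Atoh1*, *Hepacam2* and *Muc2*, at 0.316 to 0.441. *Muc2* encodes the main secreted mucin of goblet cells and *Atoh1* the transcription factor of secretory epithelial cells. *Muc2* had 17.59, 563.42 and 188.41 FPKM in OP mice and 154.44, 275.69 and 933.17 FPKM in OR mice, so that OP mouse 1 was lowest and OR mouse 3 highest, as for *Ccl6*. *Ccl6* per 100 FPKM of *Muc2* ran from 18.0 to 43.2, a 2.40-fold range against 38.8-fold for *Ccl6* itself. For *Ccl9* the nearest were *Rab27a* (0.171), *Rab27b* (0.1885) and *Scnn1b* (0.204). *Ccl5* was nearest to *Gsta4* (0.191), *Cox6b2* (0.1975) and *Nkg7* (0.217), the last a granule protein of cytotoxic lymphocytes. The ratio of *Ccl5* to *Nkg7* stayed between 6.88 and 9.415 over the 6 mice, a 1.37-fold range where *Ccl5* itself varied 4.82-fold. As with *Dcn*, the narrow ratios to *Muc2* and *Nkg7* follow from how these genes were chosen.

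**Figure D4:**
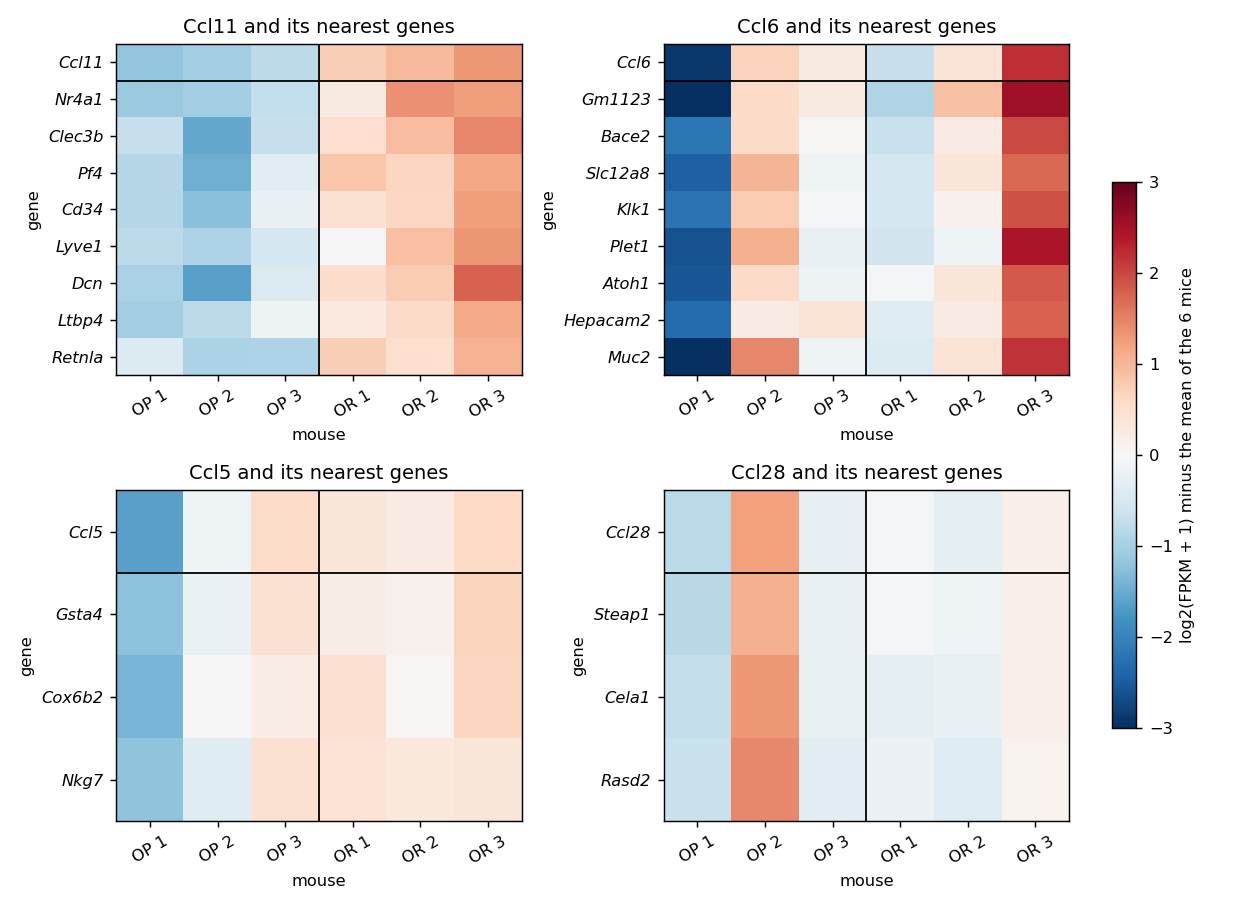
Mean-centred log2(FPKM + 1) in each mouse (red above, blue below the mean of the 6 mice; OP left and OR right of the line) for *Ccl11*, *Ccl6*, *Ccl5* and *Ccl28* with their nearest genes. The *Ccl11* rows split by group, whereas the *Ccl6* rows are lowest in OP mouse 1 and highest in OR mouse 3, the *Ccl5* rows lowest in OP mouse 1, and the *Ccl28* rows highest in OP mouse 2.

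Receptors of these ligands were low in whole colon. Of 10 Ccr genes listed, 9 were in the table, 7 of them had a mean below 1 FPKM and 4 were tested. By limma-trend 0 of the 4 passed the q-value threshold in either direction and 0 had an unadjusted p below 0.05, against 3.53% lower and 0.503% higher among all genes, and their median difference was 0.02. *Ccr1*, the receptor of *Ccl6* and *Ccl9*, had 2.06, 1.36 and 1.61 FPKM in OP mice and 1.02, 2.54 and 1.37 FPKM in OR mice. *Ccr6* had 1.21, 0.69 and 4.82 FPKM in OP mice and 0.85, 0.85 and 0.49 FPKM in OR mice, with OP mouse 3 highest, and a difference of 0.70 (standard error 0.43, adjusted p = 0.945 from limma-trend). Without OP mouse 2, 1 of these receptors was higher at an unadjusted p below 0.05. *Ccr3*, the eotaxin receptor, was not analysed here.

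Scavengers of CC chemokines and the protease *Dpp4*, which trims the amino end of several chemokines, made up a list of 5 genes, of which 4 were tested. By limma-trend 0 passed the q-value threshold and 0 had an unadjusted p below 0.05. All 4 had a negative difference, with a median of -0.335 against -0.10 for all genes tested, where negative differences were common. *Ackr4*, which takes up *Ccl21*, *Ccl19* and *Ccl25* proteins, had 1.40, 2.93 and 3.29 FPKM in OP mice and 3.73, 3.81 and 5.25 FPKM in OR mice. Every OP mouse was below every OR mouse, with a difference of -0.60 (standard error 0.27, adjusted p = 0.945 from limma-trend). *Dpp4* had 3.77, 9.15 and 13.58 FPKM in OP mice and 16.38, 7.19 and 10.91 FPKM in OR mice, which overlapped. *Ackr2*, below the filter and not tested, had 0.47, 0.15 and 0.2 FPKM in OP mice and 0.48, 1.05 and 0.94 FPKM in OR mice. Its groups did not overlap, but OP mouse 1 and OR mouse 1 were nearly equal. One gene of the list was lower at an unadjusted p below 0.05 without OP mouse 3, with median-of-ratios scaling, without the filter or without the trend.

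Of 14 other CC ligands listed, 11 were in the table and 9 were tested. By limma-trend 0 passed the q-value threshold in either direction. At an unadjusted p under 0.05, 1 gene was lower and 1 higher in OP mice, against 3.53% and 0.503% of all genes tested, and the list had a median difference of 0.04. The lower gene was *Ccl21a*, the lymphatic chemokine that draws dendritic cells and T cells through Ccr7. It had 16.10, 19.05 and 31.31 FPKM in OP mice and 30.61, 86.08 and 88.20 FPKM in OR mice, overlapping only by OP mouse 3 and OR mouse 1, with a difference of -1.49 (standard error 0.43, adjusted p = 0.929 from limma-trend). Reads of *Ccl21a* can fall to near-identical copies, so its level is uncertain. *Ccl21d*, such a copy that was added after the values had been seen, had 2.98, 2.66 and 6.53 FPKM in OP mice and 4.72, 8.83 and 14.2 FPKM in OR mice.

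The higher gene was *Ccl20*, the epithelial ligand of Ccr6. It had 9.85, 2.63 and 11.25 FPKM in OP mice and 1.66, 3.05 and 2.57 FPKM in OR mice. OP mice 1 and 3 were above all OR mice and OP mouse 2 was among them, with a difference of 1.22 (standard error 0.46, adjusted p = 0.945 from limma-trend). Its unadjusted call was lost without OP mouse 1, OP mouse 3, OR mouse 1 or OR mouse 3, each of which left 0 of the list higher. *Ccl27a* had 2.92 to 7.85 FPKM over the 6 mice, and *Ccl12*, which lies between *Ccl11* and *Ccl8*, had 1.78, 0 and 0.24 FPKM in OP mice and 0.23, 3.45 and 0.71 FPKM in OR mice.

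Signals known to induce CC chemokines were a list of 22 genes, of which 20 were in the table and 15 were tested. By limma-trend 0 passed the q-value threshold, 3 had an unadjusted p under 0.05 and were lower in OP mice (*Il33*, *Il1r1* and *Il1b*), 0 were higher, and the median difference was -0.16. Among all genes tested the shares were 3.53% lower and 0.503% higher. The count of 3 fell to 1 without OP mouse 2 and without OR mouse 3. *Il33*, an alarmin that activates type 2 immune cells, had 0.72, 1.16 and 0.68 FPKM in OP mice and 2.61, 1.67 and 2.13 FPKM in OR mice. Every OP mouse was below every OR mouse, with a difference of -0.76 (standard error 0.20, adjusted p = 0.798 from limma-trend, two-sided exact permutation p = 0.1, the smallest that 3 mice against 3 can give). *Il1r1*, the interleukin-1 receptor, had 5.21, 6.00 and 9.06 FPKM in OP mice and 9.68, 10.58 and 12.98 FPKM in OR mice, also without overlap, with a difference of -0.66 (standard error 0.23, adjusted p = 0.945 from limma-trend). Type 2 cytokines were near 0. *Il13*, which induces eotaxin, was listed at 0 in all OP mice and at 0.14, 0.13 and 0 FPKM in OR mice, and *Il5*, which acts on eosinophils, at 0 in OP mice and 0.05 FPKM in each OR mouse. The receptor chain and the transcription factor through which *Il13* acts were at higher levels and overlapped, with *Il4ra* at 10.2 to 17.3 FPKM and *Stat6* at 33.7 to 51.9 FPKM over the 6 mice.

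Markers of the cell types that could make or follow these chemokines differed between the groups to unequal degrees. Of 12 fibroblast markers tested, limma-trend put 9 lower in OP mice and 0 higher at an unadjusted p under 0.05, where 3.53% of all genes tested were lower and 0.503% higher by that rule, with a median difference of -0.81. The summed fibroblast markers ran from 104.7 to 189.1 FPKM over OP mice and from 268.6 to 504.6 FPKM over OR mice, without overlap. Of 13 macrophage markers tested, 10 were lower and 0 higher, with a median of -0.88. Of the 14 macrophage markers with values, 9 had every OP mouse below every OR mouse, as had 8 of the 12 fibroblast markers, against 6.81% of all genes tested. The macrophage sums of 83.5 to 158.8 and 154.3 to 189.9 FPKM overlapped. *C1qa*, a complement gene of resident macrophages, had 15.28, 10.69 and 29.52 FPKM in OP mice and 29.93, 46.21 and 32.84 FPKM in OR mice. *Mertk* and *Cd14* overlapped and had the higher mean in OP mice, with differences of 0.40 and 0.13. Both have high levels for the list and weigh on its sum. In blood endothelium 10 of 12 markers were lower, with sums of 24.8 to 41.75 FPKM over OP mice and 45.2 to 79.5 FPKM over OR mice. None of these lists held a gene that passed the q-value threshold by limma-trend. The part of these cell types in the levels of *Ccl11* and *Ccl8* was not tested.

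Markers of eosinophils, the cells that follow eotaxin, were low in these libraries. Of 11 markers listed, 8 were in the table and 4 were tested, with 1 lower at an unadjusted limma-trend p below 0.05 (*Prg2*), 0 higher and a median of 0.14. *Epx*, the eosinophil peroxidase, had 0 to 0.08 FPKM over OP mice and 0.03 to 0.13 FPKM over OR mice. *Prg2*, the major basic protein, had 0.25, 0 and 0.92 FPKM in OP mice and 1.22, 1.21 and 1.03 FPKM in OR mice. *Il5ra*, the interleukin-5 receptor chain, went the opposite way, with 0.09, 0.04 and 0.16 FPKM in OP mice and 0.02, 0 and 0.02 FPKM in OR mice, all below the filter, and *Siglecf* had 1.84 to 5.16 and 1.77 to 3.02 FPKM. Sums of the list overlapped, from 5.59 to 11.3 FPKM over OP mice and 4.77 to 7.92 FPKM over OR mice.

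Summed markers of lymphocytes overlapped between the groups, as did those of monocytes, a sum that was nearly all 1 gene. Of 11 T cell and cytotoxic lymphocyte markers tested, 0 were lower or higher at an unadjusted p below 0.05 by limma-trend. Among them 10 had a negative difference, with a median of -0.51 against -0.10 for all genes tested, where negative differences were common. The sums were 25.8, 43.0 and 102 FPKM in OP mice and 83.95, 69.7 and 100.4 FPKM in OR mice, with OP mouse 1 lowest as for *Ccl5*. Of 6 monocyte markers tested 3 were lower by that rule (*F13a1*, *Vcan* and *Ly6c1*), against 3.53% of all genes tested. The same 3 had every OP mouse below every OR mouse, against 6.81% of all genes tested, whereas *Ly6c2*, *Itgam* and *Plac8* overlapped. All 6 had a negative difference, with a median of -0.625 against the same -0.10. Their sums, nearly all *Plac8*, overlapped, at 1243 to 1991 and 1478 to 2077 FPKM. *Plac8* alone had 1213 to 1976 FPKM over OP mice and 1446 to 2038 FPKM over OR mice. The sum therefore says little of the other monocyte markers. *Ly6c1* had 9.41, 10.9 and 19.51 FPKM in OP mice and 23.38, 28.38 and 27.41 FPKM in OR mice. *Jchain*, a gene of IgA plasma cells, the cells that *Ccl28* attracts, had 48.82, 41.64 and 91.06 FPKM in OP mice and 119.99, 130.29 and 154.38 FPKM in OR mice, without overlap, with a difference of -1.22 (standard error 0.28, adjusted p = 0.766 from limma-trend), while *Ccl28* overlapped. None of the 12 colon epithelium markers had an unadjusted p under 0.05 by limma-trend, with a median of 0.17. In the other lists tested, 1 of 6 B cell and plasma cell markers (*Jchain*), 0 of 3 mast cell markers, 0 of 10 smooth muscle markers and 1 of 10 adipocyte markers were lower by that rule and 0 were higher, with medians of 0.21, 0.14, -0.32 and -0.55.

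**Figure D5:**
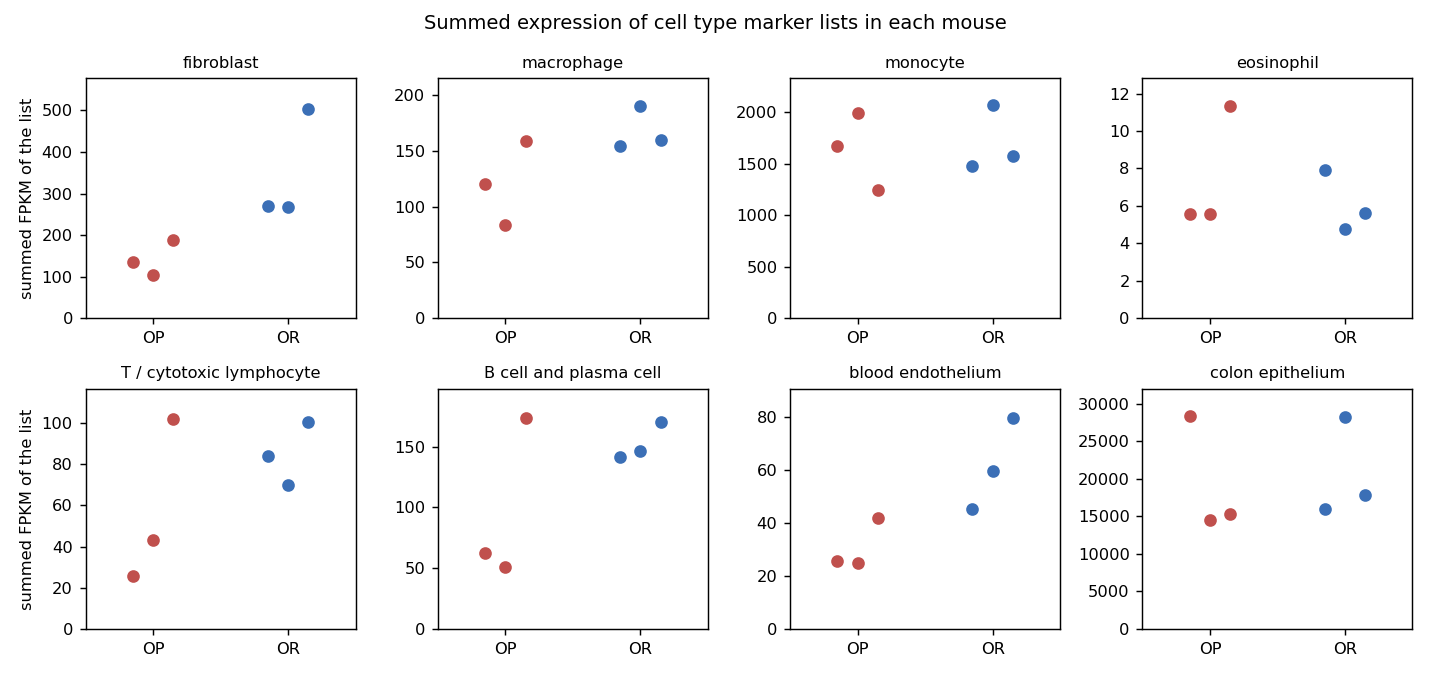
Summed FPKM of 8 marker lists in each mouse (OP red, OR blue, mice 1 to 3 from left to right; each panel has its own scale from 0). The fibroblast and blood endothelium sums of OP mice lie below those of OR mice, whereas the eosinophil and colon epithelium sums overlap. The monocyte sum also overlaps, but it is nearly all *Plac8* and says little of the other monocyte markers.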

How the data were processed

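Libraries of whole colon, 3 from OP and 3 from OR mice, were analysed. The authors deposited FPKM values to 2 decimals, 1 column per mouse, for 17778 gene symbols. Per the labels, reads were aligned to a gene set with Bowtie2 2.2.5 and quantified with RSEM 1.2.12, and HISAT2 2.0.4 and the build GRCm39 are also named in the submitters' processing notes. The paper's methods and the labels differ in versions and gene set. The authors tested counts with DESeq2, which was not run here. Depth is unknown, so no counting interval is given.

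Groups and replicate numbers came from the labels. P-values measure the spread between these mice. The 13520 genes that reached 0.5 FPKM in 3 or more mice were put on log2(FPKM + 1). R 4.3.3 with limma 3.58.1 compared OP with OR by limma-trend, with no covariate, and p-values were adjusted after Benjamini-Hochberg. The study's thresholds were used, a fold change past 1.2 or 0.83 and q below 0.2. An unadjusted p below 0.05 and groups that do not overlap were further rules. Exact two-sided permutation tests used SciPy 1.17.1. On simulated data with 200 changed genes among 13520, 58% were recovered at a log2 change of 1 and 91.5% at 2, and 19.4% and 17.2% of the calls were unchanged genes. The simulated spread was drawn independently for each gene and mouse, without effects that genes of a mouse share. These rates check the code and need not hold for the measured data.

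The members, the ligand, receptor, scavenger and inducer lists and the marker lists were chosen with earlier results of these data known. A gene of the receptor list as planned is not reported here and was left out of its counts. Genes named were the 10 members, list genes with a mean of at least 1 FPKM, the 8 genes nearest to *Ccl11*, the 3 nearest to *Ccl8*, *Ccl24*, *Ccl25* and *Ccl28*, and up to 3 markers per list with the highest means. Others, among them *Il13*, *Il5*, *Il1b*, *Epx*, *Prg2*, *Il5ra*, *Epcam*, *F13a1*, *Vcan*, *Itgam*, *Ackr2* and the genes near *Ccl6*, *Ccl9* and *Ccl5*, were chosen after their values were seen. In the RefSeq annotation *Ccl6*, *Ccl5* and *Ccl25* overlap noncoding genes, so their values are uncertain to that extent. Promoters and gene order came from RefSeq on GRCm38.p6, another build than the one the labels name, and no coordinate was moved between builds. Alternatives were median-of-ratios scaling, TPM, a pseudocount of 0.1, no filter, at least 1 FPKM in all mice, no trend, sample weights, a block for the replicate number, and each mouse left out.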

Additional observations from a re-analysis of the deposited data

How the results depend on the processing

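Of the genes tested, 3 were lower in OP mice at the q-value threshold. The count was 0 with median-of-ratios scaling, TPM, a pseudocount of 0.1, no filter or at least 1 FPKM in all mice, 5 with sample weights, and 0 to 1 with each mouse left out. Lower genes at an unadjusted p below 0.05 numbered 477, against 317 with at least 1 FPKM in all mice and 231 to 1104 with each mouse left out. Higher genes numbered 68, against 153 with median-of-ratios scaling, 133 without a filter, 146 with sample weights and 24 to 181 with each mouse left out. With the replicate number as a block, 0 genes were lower at the q-value threshold and 409 at the unadjusted p. Same-numbered mice are different animals, their deviations correlated at -0.157 to 0.0709, and the numbers were not taken as a pairing.

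Of the other CC ligands, 1 was lower at an unadjusted p below 0.05, and 2 without a filter, while 1 was higher, 0 with sample weights and 0 to 1 with each mouse left out. For the receptors, the count of 0 higher became 0 to 1 with each mouse left out, and that of 0 lower stayed at 0 under all 14 alternatives. The scavenger count of 0 lower became 1 with median-of-ratios scaling, without a filter or without the trend, and 0 to 1 with each mouse left out. For the inducers, 3 lower genes became 5 without a filter, 1 with at least 1 FPKM in all mice, and 1 to 3 with each mouse left out. The count of 2 chemokines whose groups did not overlap was 2 to 5 with each mouse left out, where overlap becomes rarer for any gene. The cause of these shifts was not tested.

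*Ccl11* lay between -2.33 and -1.85 and *Ccl8* between -2.81 and -1.96 under all 14 alternatives, and the sign held. *Ccl2* was -0.88 and *Ccl7* -1.12 with a pseudocount of 0.1. The sign of *Ccl25* held in 11 and that of *Ccl28* in 13 of 14 alternatives. With unknown depth, values near 0, such as those of *Ccl24*, *Ccl2*, *Ccl7*, *Il5* and *Il13*, have unknown counting error, and 3 mice per group limit every comparison.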
